A study of Mus musculus with 11 samples.

Results

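Cholesterol synthesis was followed over sorted mouse islet cells through 29 genes, which were taken from the deposited count table by gene symbol. They comprised 19 enzymes of the pathway from acetyl-CoA to cholesterol, 5 genes of its control by sterol regulatory element binding proteins (SREBPs), and 5 genes of sterol efflux and transport. All 29 symbols were found among the 55401 genes of the table, and 29 of 29 were among the 17424 genes that had enough counts to be tested. The samples were 11 RNA-seq libraries from the islets of 4 male, chow-fed C57BL6/J mice, 10 weeks old by the labels (the study's text gives another age). Every library came from mice with the same alleles: RIP-Cre, which is Cre recombinase under the rat insulin promoter, a STOP-tdTomato reporter and *Nnat*-EGFP. Cre removes the stop cassette, so tdTomato marks cells in which the rat insulin promoter has been active, and eGFP reports the *Nnat* promoter of the transgene. FACS yielded 4 libraries of beta cells that the labels call NNAT-positive, 4 of beta cells that they call NNAT-negative, and 3 of non-beta cells, with no non-beta library from mouse 4. Mice are numbered here by the replicate number in the sample titles, and equal numbers were taken to mean the same mouse. The questions were whether these genes differed between beta cells and the other islet cells, and between the beta cell fractions.

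Cells make cholesterol from acetyl-CoA through mevalonate, the isoprenoids, squalene and lanosterol. The precursors of SREBPs sit in the membrane of the endoplasmic reticulum, where SCAP escorts them towards the Golgi for cleavage when sterols are scarce, and the INSIG proteins hold SCAP back when sterols are plentiful. The released factors switch on genes of sterol and fatty acid synthesis, often together with NF-Y, a factor that binds CCAAT boxes. Beta cells need cholesterol for the membranes of their insulin granules, and ABCA1 and ABCG1 carry the excess out of the cell.

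*Nnat* itself went against the labels of the beta cell fractions. It stood at 50.5, 46.4, 46.0 and 101 CPM (counts scaled to library size) in the labelled-positive libraries of mice 1 to 4, at 74.8, 80.8, 66.5 and 153 CPM in the labelled-negative ones, and at 12.9, 29.9 and 17.4 CPM in the non-beta libraries. In 4 of 4 mice the labelled-positive library thus had the lower level, with a log2 difference of −0.62 (SE 0.17) that did not pass (edgeR's quasi-likelihood test, adjusted *p*=0.444). Column headings given elsewhere by the study also name these fractions the other way round from the labels. Which naming holds was not settled here, and the sign of each difference between the beta cell fractions depends on it. The fractions are named below by what their labels say, as labelled-positive and labelled-negative. Total counts per library lay between 30420352 and 43238376, so that 3 counts came to at most 0.0986 CPM. *Ins1* and *Ins2* took 17.8% to 34.4% of counts in the beta cell libraries and 0.97% to 2.34% in the non-beta libraries. All 10 beta cell markers were higher in the beta cell libraries. The non-beta libraries were a mixture: their summed levels were 124100 to 172500 CPM for 8 alpha cell markers, 6898 to 13510 CPM for 4 delta cell markers, 18930 to 74730 CPM for 12 acinar markers, 2125 to 2435 CPM for 7 endothelial markers and 3754 to 8515 CPM for 7 stellate and fibroblast markers. A lower level there cannot be told apart from a smaller share of the cells that use the gene, since in bulk libraries fewer cells of a type and less RNA per cell look the same.

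Beta cells held more transcript than non-beta cells of all 3 enzymes from squalene to lanosterol, of 4 of the 8 enzymes from lanosterol to cholesterol and of all 5 SREBP control genes. Over both labelled fractions together, 14 of the 29 genes were higher in beta cells, 1 was lower and 14 did not pass the threshold, a Benjamini-Hochberg adjusted *p* below 0.01 over all tested genes (edgeR's quasi-likelihood test). Among all tested genes, 17.2% were higher and 23.9% lower in the same comparison. The 29 genes had a median log2 fold change of 0.47, against −0.10 for all tested genes. *Msmo1*, *Sqle*, *Insig1*, *Tm7sf2*, *Cyp51*, *Srebf1* and *Lss* were higher by more than 2-fold. By step, the genes that were higher numbered 1 of 2 from acetyl-CoA to mevalonate, 0 of 6 from mevalonate to the isoprenoids, 3 of 3 from squalene to lanosterol, 4 of 8 from lanosterol to cholesterol, 5 of 5 in SREBP control and 1 of 5 in efflux and transport. The 19 enzymes summed to 763, 860, 814 and 779 CPM in the labelled-positive libraries of mice 1 to 4, to 736, 836, 819 and 824 CPM in the labelled-negative ones, and to 353, 396 and 378 CPM in the non-beta libraries. The mouse entered the fit as a block, so these differences rest on mice 1, 2 and 3, which gave both kinds of cell.

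**Figure D1:**
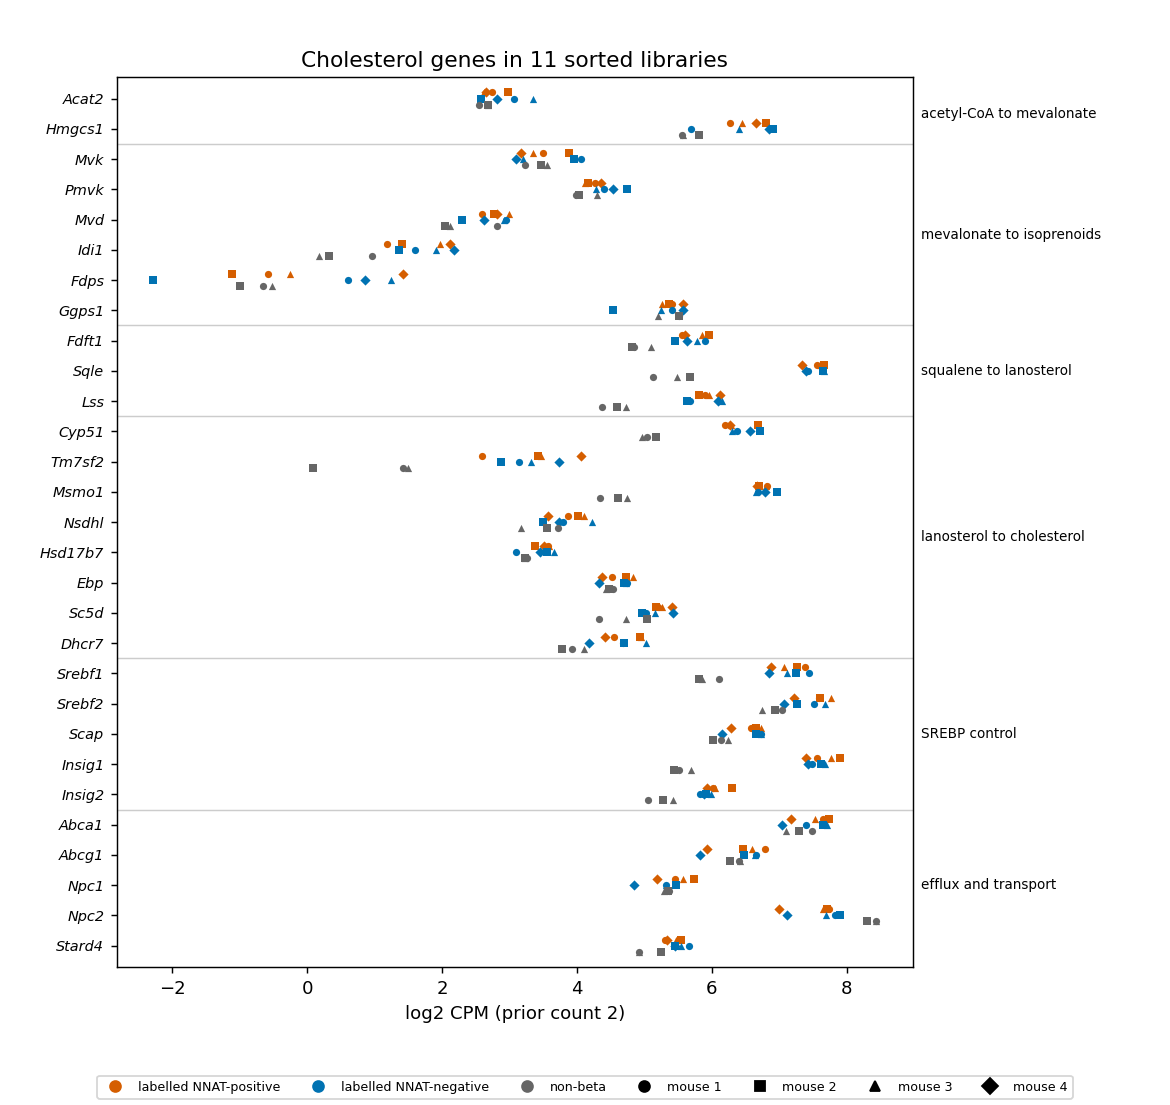
The horizontal axis is log2 CPM (prior count 2) and each row is a gene, grouped by step; colours stand for the sorted fractions and symbols for the mice. The grey non-beta points lie to the left of all beta cell points for *Sqle*, *Msmo1*, *Insig1*, *Srebf1*, *Lss*, *Cyp51* and *Tm7sf2*, and to the right of them for *Npc2*, while the labelled-positive and labelled-negative libraries overlap in every row.

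Most promoters of these genes that could be read held an NF-Y box. In RefSeq windows of GRCm38.p6 from 250 bases before to 50 bases after a start, 23 of the 29 genes had an entry, and *Abcg1*, *Fdft1*, *Fdps*, *Npc1*, *Sqle* and *Stard4* had none. CCAAT, searched on both strands (ATTGG on the other), occurred in windows of 20 of the 23 genes (87.0%; not *Abca1*, *Acat2* and *Scap*) and of 41.1% of 27025 genes in all. A classical sterol regulatory element, TCACNCCAC, was found only for *Hmgcs1*, and for 1.44% of all genes. The E-box CACGTG occurred for 6 of the 23 genes (26.1%) and for 8.09% of all genes, and no match of an E-box or a sterol element overlapped a CCAAT box in the 23 genes. Windows were not matched for base composition. The CCAAT box was not a mark of the genes that were higher in beta cells: it occurred in 10 of 11 of those with a window, in 9 of 11 of those that did not pass, and in that of *Npc2*, which was lower. The stretches below are examples that carry these boxes outside annotated exons, and those of *Srebf1* that also do so are not shown. That of *Mvd* lies within the annotated gene *Gm20388*. The stretches end upstream of the RefSeq start and read 5′ to 3′ on the strand of the gene. The NF-Y box and the sterol regulatory element are in capitals. The first 5 belong to genes that were higher in beta cells, and *Mvd* and *Sc5d* did not pass.
*Hmgcs1*, chr13:119690101-119690325, plus strand: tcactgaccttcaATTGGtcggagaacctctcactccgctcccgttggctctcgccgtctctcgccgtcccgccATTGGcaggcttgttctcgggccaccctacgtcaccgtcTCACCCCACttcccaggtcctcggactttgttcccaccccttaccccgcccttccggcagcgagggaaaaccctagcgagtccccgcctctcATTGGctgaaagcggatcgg
*Lss*, chr10:76531528-76531562, plus strand: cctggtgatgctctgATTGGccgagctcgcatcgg
*Insig1*, chr5:28071181-28071215, plus strand: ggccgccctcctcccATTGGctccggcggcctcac
*Insig2*, chr1:121332599-121332740, minus strand: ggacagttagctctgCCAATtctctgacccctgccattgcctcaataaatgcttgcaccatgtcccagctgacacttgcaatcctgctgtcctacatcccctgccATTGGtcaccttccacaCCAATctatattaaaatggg
*Srebf2*, chr15:82147119-82147153, plus strand: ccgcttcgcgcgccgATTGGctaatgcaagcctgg
*Mvd*, chr8:122443430-122443497, minus strand: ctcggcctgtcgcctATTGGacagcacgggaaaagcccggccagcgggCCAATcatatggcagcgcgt
*Sc5d*, chr9:42264305-42264339, minus strand: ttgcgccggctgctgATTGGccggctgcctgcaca

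**Figure D2:**
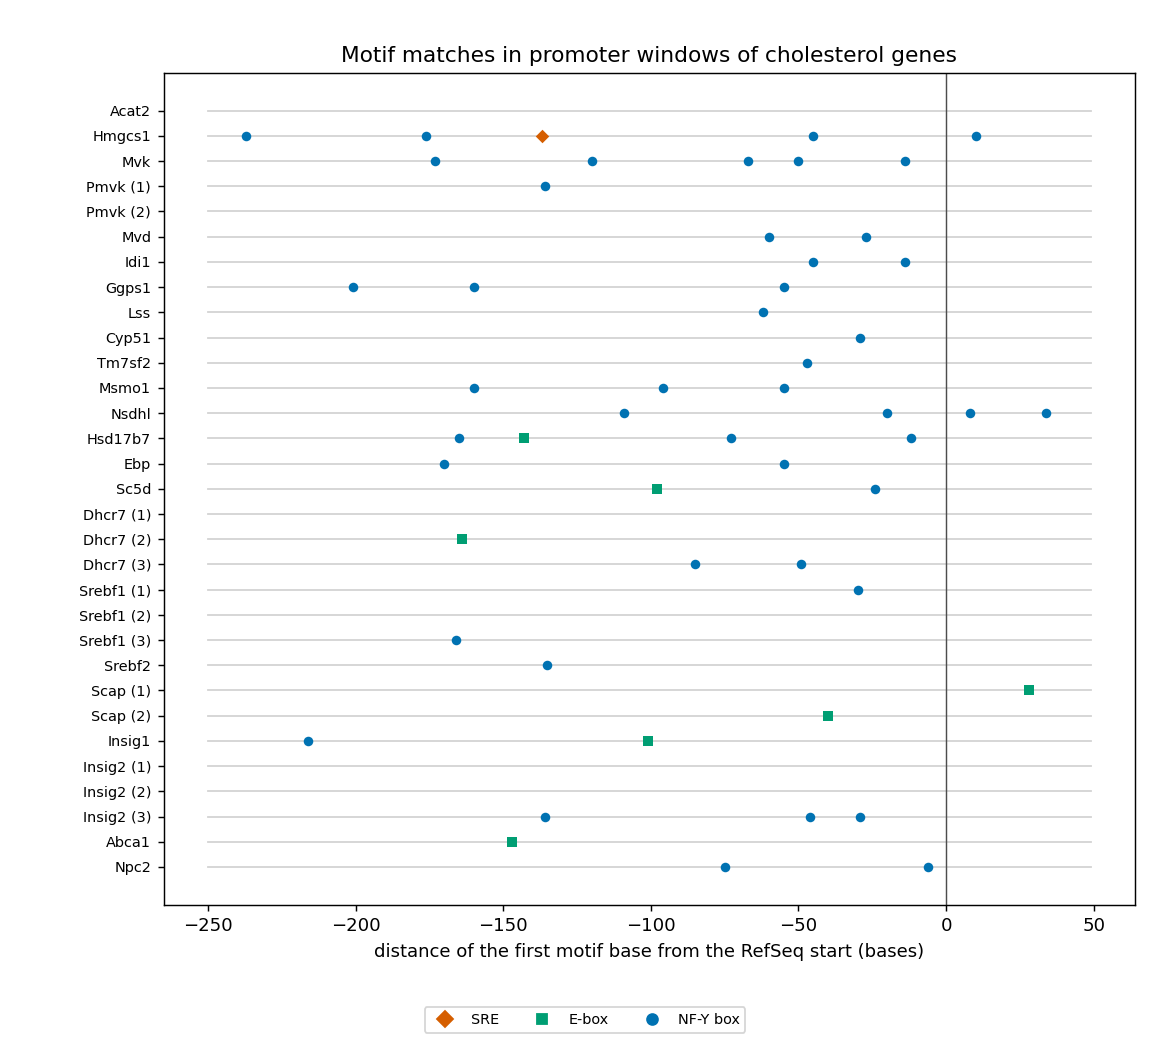
Each grey line is a promoter window of a cholesterol gene, the horizontal axis is the distance in bases from the RefSeq start, and symbols mark the first base of each motif; genes with several starts have several numbered lines. Blue NF-Y boxes occur in windows of 20 genes, and the only sterol regulatory element is that of *Hmgcs1*, 137 bases before the start.

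Of the enzymes that lead to mevalonate, *Hmgcs1*, whose product joins acetyl-CoA and acetoacetyl-CoA to HMG-CoA and whose promoter holds the sterol element shown above, was higher in beta cells. Its level was 77.5, 111, 87.2 and 101 CPM in the labelled-positive libraries of mice 1 to 4, 51.4, 121, 85.0 and 116 CPM in the labelled-negative ones, and 46.9, 56.1 and 47.8 CPM in the non-beta libraries. The labelled-negative library of mouse 1 lay among the non-beta libraries, and the others stood above them. The log2 fold change was 0.78 (SE 0.15, adjusted *p*=0.00115, edgeR's quasi-likelihood test). It did not pass without mouse 2 (0.62, adjusted *p*=0.0174) or without mouse 3 (0.74, adjusted *p*=0.0186, same test). *Acat2*, the cytosolic acetoacetyl-CoA thiolase that takes the step before, lay between 5.94 and 10.2 CPM in beta cells and between 5.77 and 6.39 CPM in non-beta cells, and did not pass (log2 fold change 0.27, SE 0.22).

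None of the 6 genes from mevalonate to the isoprenoids passed in edgeR's quasi-likelihood test or in DESeq2. At an unadjusted *p* below 0.05, 4311 of the 17424 tested genes were higher and 5659 lower by edgeR, while 1 of these 6 was higher. That gene was *Idi1*, which interconverts the isoprenoid building blocks, with 2.22 to 4.46 CPM in the 8 beta cell libraries (median 3.34) and 1.90, 1.19 and 1.08 CPM in non-beta cells. The groups did not overlap, and the log2 fold change was 1.08 (SE 0.39, adjusted *p*=0.0381, edgeR's quasi-likelihood test). The mevalonate kinase *Mvk*, the phosphomevalonate kinase *Pmvk* and the decarboxylase *Mvd* had log2 fold changes of 0.23 (SE 0.20), 0.22 (SE 0.14) and 0.43 (SE 0.25), and their beta and non-beta libraries overlapped. *Ggps1*, which makes the geranylgeranyl diphosphate used to prenylate proteins, was the only enzyme with a negative value (−0.20, SE 0.15). *Fdps*, the farnesyl diphosphate synthase, had 0.152 to 2.63 CPM in beta cells and at most 0.645 CPM in non-beta cells. Its beta cell libraries scattered widely, and with an SE of 0.73 a difference of several-fold could go undetected. *Fdps* shares 1124 exonic bases with *Gm43738* on the same strand, so that reads in them may not have been counted for *Fdps*.

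From squalene to lanosterol all 3 enzymes were higher in beta cells. *Sqle*, the squalene epoxidase, which uses molecular oxygen and is a rate-limiting step, had 188, 202, 196 and 161 CPM in the labelled-positive libraries of mice 1 to 4, 171, 201, 203 and 168 CPM in the labelled-negative ones, and 34.9, 51.1 and 44.8 CPM in the non-beta libraries. Its lowest beta cell library was more than 3-fold above its highest non-beta library. The log2 fold change was 2.16 (SE 0.09), or 4.48-fold, and the adjusted *p* 5.0e-08 by edgeR's quasi-likelihood test. *Lss*, the lanosterol synthase that folds the epoxide into the first sterol, had 59.8, 56.1, 62.4 and 69.4 CPM, 50.9, 49.4, 70.8 and 68.2 CPM, and 20.6, 24.2 and 26.5 CPM in the same order. Every beta cell library was above every non-beta library, with a log2 difference of 1.29 (SE 0.10, adjusted *p*=2.6e-06, same test). *Fdft1*, the squalene synthase that commits farnesyl diphosphate to sterols, ranged from 43.9 to 62.4 CPM in beta cells (median 52.2) and stood at 28.7, 28.2 and 34.3 CPM in non-beta cells. Its groups did not overlap, with a log2 difference of 0.84 (SE 0.13, adjusted *p*=0.000286, same test). *Fdft1* shares 774 exonic bases with *Ctsb* on the opposite strand, and whether the counting used the strand was not stated.

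From lanosterol to cholesterol 4 of 8 enzymes were higher in beta cells and 0 were lower, also by DESeq2. At an unadjusted *p* below 0.05, 5 were higher, with *Sc5d* added, and 0 were lower. Of the 17424 tested genes, 4311 were higher and 5659 lower at that level. *Msmo1*, the methylsterol monooxygenase that starts the removal of the methyl groups of lanosterol's first ring, had the largest log2 fold change of the 29 genes. Its level was 113, 104, 111 and 102 CPM in the labelled-positive libraries, 103, 125, 101 and 110 CPM in the labelled-negative ones, and 20.3, 24.4 and 26.7 CPM in the non-beta libraries. The beta cell libraries stayed within a narrow band far above the non-beta libraries, with a log2 fold change of 2.21 (SE 0.11), or 4.62-fold (adjusted *p*=1.3e-07, edgeR's quasi-likelihood test). *Cyp51*, the lanosterol demethylase, had 73.4, 103, 77.7 and 76.7 CPM, 83.2, 105, 78.7 and 94.9 CPM, and 32.8, 36.1 and 31.3 CPM, again with no overlap (log2 fold change 1.37, SE 0.09, adjusted *p*=6.6e-07, same test).

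*Tm7sf2*, a sterol reductase of the next step, was low in all libraries and lowest in non-beta cells. It had 5.96, 10.7, 11.0 and 16.6 CPM in the labelled-positive libraries, 8.77, 7.28, 9.93 and 13.2 CPM in the labelled-negative ones, and 2.62, 1.01 and 2.77 CPM in the non-beta libraries. The log2 fold change was 2.11 (SE 0.33, adjusted *p*=0.000377, edgeR's quasi-likelihood test). *Tm7sf2* shares 532 exonic bases with *Vps51* on the same strand, so its level is uncertain. *Dhcr7*, the reductase that turns 7-dehydrocholesterol into cholesterol, had 18.1 to 32.4 CPM in beta cells (median 25.7) and 15.1, 13.6 and 17.1 CPM in non-beta cells, and was higher by 0.88 on the log2 scale (SE 0.12, adjusted *p*=0.000153, same test). The enzymes in between did not pass. *Sc5d*, the sterol desaturase, came nearest (0.43, SE 0.13, adjusted *p*=0.0203, same test), and it passed without mouse 2 (0.61, adjusted *p*=0.00286, same test). The dehydrogenase *Nsdhl*, the ketosteroid reductase *Hsd17b7* and the sterol isomerase *Ebp* had log2 fold changes of 0.43 (SE 0.20), 0.24 (SE 0.17) and 0.23 (SE 0.11), with overlapping groups. Within 1 stretch of the pathway, *Msmo1* was thus 4.62-fold higher while *Nsdhl* and *Hsd17b7*, which act with it on the same methyl groups, had fitted differences of 1.35-fold and 1.19-fold that did not pass. The difference between these genes was not tested.

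All 5 genes of SREBP control were higher in beta cells. *Insig1*, which retains the SREBP and SCAP complex and is itself an SREBP target, had 189, 240.0, 218 and 169 CPM in the labelled-positive libraries, 179, 196, 204 and 173 CPM in the labelled-negative ones, and 45.8, 43.2 and 51.5 CPM in the non-beta libraries. The groups lay far apart, with a log2 fold change of 2.12 (SE 0.10), or 4.35-fold (adjusted *p*=6.6e-08, edgeR's quasi-likelihood test). Its relative *Insig2* had 56.8 to 78.9 CPM in beta cells (median 62.0) and 33.0, 38.8 and 42.8 CPM in non-beta cells, a log2 difference of 0.77 (SE 0.09, adjusted *p*=5.4e-05, same test).

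Both genes for the factors themselves were higher too. *Srebf1*, which encodes the form best known for driving fatty acid genes, had 166, 154, 134 and 118 CPM, 174, 153, 139 and 115 CPM, and 68.7, 56.1 and 58.0 CPM in the 3 fractions in the order above. Its log2 fold change was 1.33 (SE 0.07, adjusted *p*=2.3e-07, edgeR's quasi-likelihood test), and the groups did not overlap. *Srebf2*, which encodes the main activator of cholesterol genes, had 193, 195, 217 and 149 CPM, 184, 154, 204 and 134 CPM, and 131, 122 and 107 CPM. That difference was smaller, at 0.66 on the log2 scale (SE 0.10, adjusted *p*=0.000326, same test), and the labelled-negative library of mouse 4 nearly reached the non-beta libraries. *Scap*, the escort, had 71.1 to 106 CPM in beta cells (median 100.5) and 70.5, 64.5 and 75.6 CPM in non-beta cells. It was higher in the beta cells of 3 of 3 mice (log2 fold change 0.55, SE 0.07, adjusted *p*=0.000126, same test). Without the mouse block it did not pass (0.44, adjusted *p*=0.0210, same test).

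**Figure D3:**
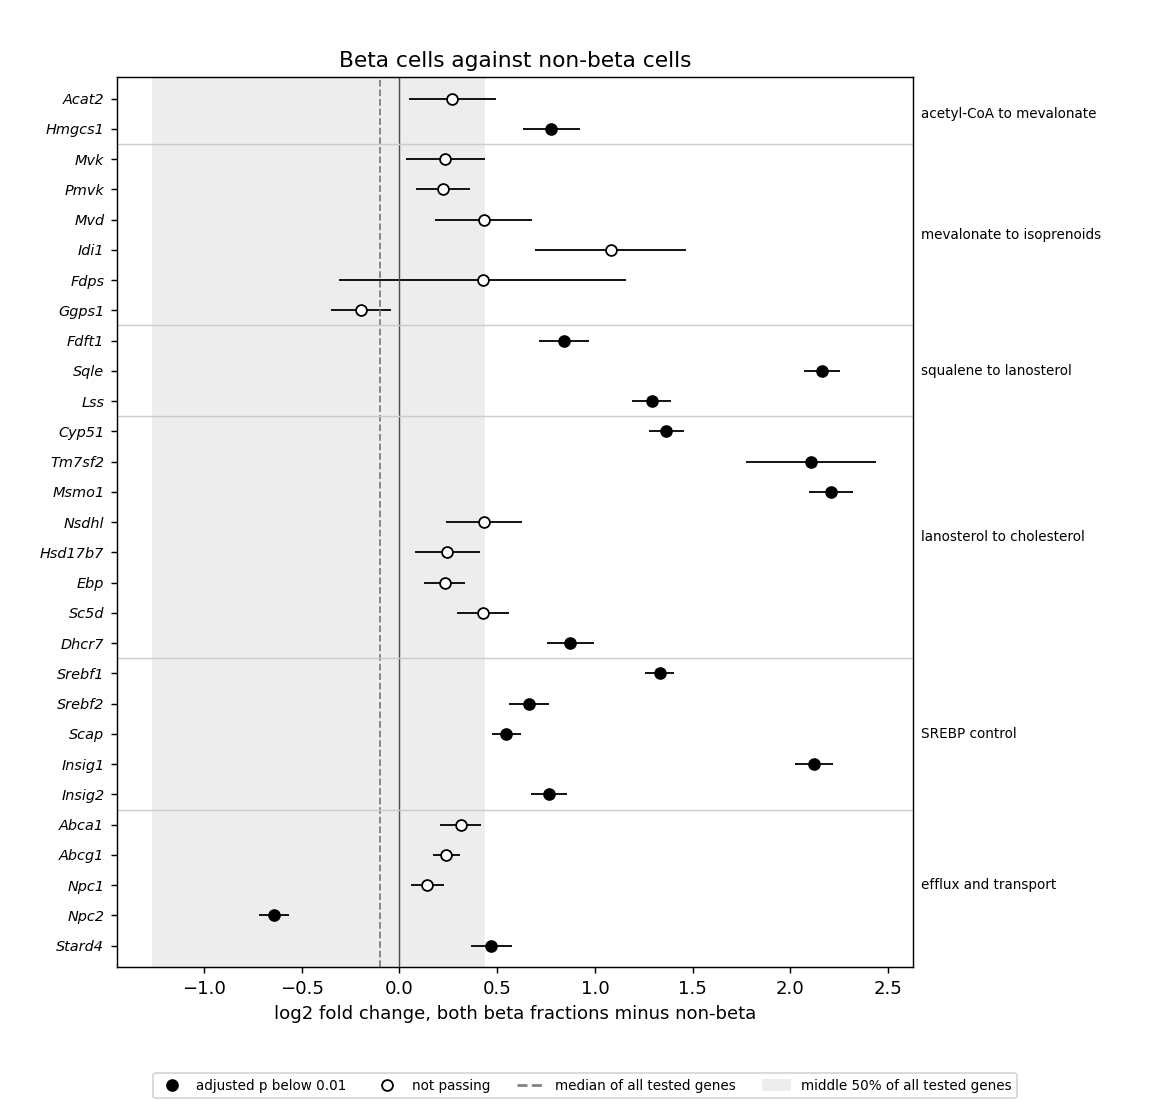
The horizontal axis is the log2 fold change of both beta cell fractions against non-beta cells; points are fitted values with their SE, filled where the adjusted *p* was below 0.01, and the grey band holds the middle 50% of all tested genes, between −1.26 and 0.43. The points of squalene to lanosterol, SREBP control, *Cyp51*, *Msmo1*, *Tm7sf2* and *Dhcr7* lie to the right of the band, and those from mevalonate to the isoprenoids lie in or near it except *Idi1*.

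The efflux and transport genes differed little, apart from *Npc2*. NPC2 is the soluble protein that takes cholesterol freed in lysosomes and hands it to NPC1 in the lysosomal membrane. *Npc2* had 213, 208, 201 and 128 CPM in the labelled-positive libraries, 226, 240.0, 206 and 139 CPM in the labelled-negative ones, and 348, 317 and 344 CPM in the non-beta libraries. It was lower in both beta cell fractions of mice 1 to 3, with a log2 difference of −0.64 (SE 0.08, adjusted *p*=4.8e-05, edgeR's quasi-likelihood test), or 1.56-fold. Macrophages are rich in lysosomes, and the 10 macrophage and leukocyte markers summed to 583.5 to 1318 CPM in the non-beta libraries against 49.4 to 83.6 CPM in beta cells; their part in the result was not tested. *Npc1* had 28.7 to 53.1 CPM in beta cells and 39.0 to 41.2 CPM in non-beta cells (log2 fold change 0.14, SE 0.08). *Stard4*, a cytosolic carrier of cholesterol and a sterol-regulated gene, was higher (39.7 to 50.6 CPM against 30.4, 38.0 and 30.2 CPM; log2 fold change 0.47, SE 0.10, adjusted *p*=0.00307, same test). It did not pass without mouse 1 (0.42, adjusted *p*=0.0211) or mouse 3 (0.41, adjusted *p*=0.0441, same test). The exporters *Abca1* and *Abcg1* had log2 fold changes of 0.31 (SE 0.11, adjusted *p*=0.0306) and 0.24 (SE 0.07, adjusted *p*=0.0141, same test) and overlapping groups, and neither passed. Without mouse 1 *Abca1* passed (0.46, adjusted *p*=0.00747, same test).

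Per length, the levels of these genes spanned more than 2 orders of magnitude in beta cells, but only with *Fdps* included. In mean CPM per kilobase of exon, *Insig1* was highest in the labelled-positive libraries at 65.9 ± 10.2 (SD, *n*=4), ahead of *Npc2* at 34.5 ± 7.36 and *Sqle* at 33.7 ± 3.26, which did not differ beyond their spread. *Srebf2* and *Srebf1* came next at 26.3 ± 3.98 and 25.4 ± 3.80, likewise within their spread. Among the enzymes, *Sqle* was followed by *Hmgcs1* at 20.5 ± 3.23, *Cyp51* at 18.7 ± 3.11 and *Msmo1* at 17.5 ± 0.913, which overlapped. *Fdps* at 0.264 ± 0.243 and *Idi1* at 0.926 ± 0.284 were lowest. The value of *Fdps* may be too low, since it shares 1124 exonic bases with *Gm43738* on the same strand. In the non-beta libraries the order was another one, with *Npc2* first at 61.8 ± 3.14 (SD, *n*=3), then *Srebf2* at 16.7 ± 1.68, *Abca1* at 15.3 ± 2.04 and *Insig1* at 15.1 ± 1.37. *Sqle* stood at 7.87 ± 1.47 and *Msmo1* at 3.87 ± 0.533 there.

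Taken separately, each labelled beta cell fraction differed from non-beta cells in much the same genes, and the comparisons share the non-beta libraries. In the labelled-positive libraries 13 genes were higher and 1 was lower, where 15.8% of all tested genes were higher and 19.1% lower. In the labelled-negative ones 14 genes were higher and 1 was lower, against 15.6% and 21.3% of all tested genes (edgeR's quasi-likelihood test). The gene called in the second comparison alone was *Stard4*, with log2 fold changes of 0.41 (adjusted *p*=0.0128) and 0.53 (adjusted *p*=0.00313, same test). *Npc2* was lower in both, by log2 fold changes of −0.70 and −0.59. Without the mouse block, 11 and 10 cholesterol genes were higher, where 1996 and 1990 of the 17424 tested genes were. *Hmgcs1* and *Scap* then did not pass in either comparison. Nor did *Dhcr7*, *Srebf2* and *Npc2* in the labelled-negative libraries, where *Npc2* had an adjusted *p* of 0.0125 (same test). *Hmgcs1* also did not pass in either without mouse 2 or without mouse 3. In the labelled-negative libraries, *Stard4* did not pass without mouse 1, and *Srebf2*, *Stard4* and *Tm7sf2* did not pass without mouse 3. The values for *Msmo1* were 2.19 and 2.22, for *Sqle* 2.17 and 2.16, and for *Insig1* 2.18 and 2.07.

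Between the beta cell fractions no cholesterol gene passed. None was higher or lower in edgeR's quasi-likelihood test or in DESeq2, where 0.0517% of all tested genes were higher in the labelled-positive libraries (9 genes) and 0% lower by edgeR. At an unadjusted *p* below 0.05, 1 of the 29 genes was higher (*Npc1*) and 0 were lower, against 839 and 130 of all tested genes. With DESeq2, 3 genes were lower at that level (*Pmvk*, *Cyp51* and *Npc2*) beside *Npc1*. The same held with edgeR when the non-beta libraries were left out. The 839 and 130 belong to edgeR's fit of all 11 libraries. No count of all tested genes is set beside these 3, so they are not read as a result. The median log2 fold change was 0.05 for the 29 genes and 0.05 for all tested genes. The 95% interval of the difference lay within 1.5-fold in either direction for 21 of the 29 genes, and within 2-fold for 27, all but *Idi1* and *Fdps*. For *Sqle* the difference was 0.01 (95% interval −0.20 to 0.22), for *Msmo1* −0.03 (−0.28 to 0.23), for *Srebf1* −0.02 (−0.19 to 0.16) and for *Insig1* 0.11 (−0.11 to 0.33) on the log2 scale. The intervals of *Acat2* (−0.79 to 0.36), *Mvk* (−0.64 to 0.39) and *Tm7sf2* (−0.59 to 0.92) were among those that passed 1.5-fold, so that differences of that size remain possible for them.

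The 5 genes with the smallest *p* between the beta cell fractions were *Npc1*, *Insig2*, *Pmvk*, *Srebf2* and *Cyp51*. *Npc1*, the lysosomal membrane protein of cholesterol export, had 43.7, 53.1, 47.5 and 36.3 CPM in the labelled-positive libraries of mice 1 to 4 and 40.0, 44.1, 39.9 and 28.7 CPM in the labelled-negative ones. It was higher in the former in 4 of 4 mice although the groups overlapped, with a log2 difference of 0.25 (SE 0.08, adjusted *p*=0.681, edgeR's quasi-likelihood test). *Npc1* shares 511 exonic bases with *Rmc1* on the opposite strand. *Insig2* (0.18, SE 0.09) and *Srebf2* (0.16, SE 0.10) were likewise higher in the labelled-positive library of 4 of 4 mice. *Pmvk* (−0.27, SE 0.14) and *Cyp51* (−0.13, SE 0.08) were lower in 4 of 4, *Cyp51* by only 0.02 in mice 2 and 3. None of these genes passed. They were picked by their *p*, so the agreement over the mice is no separate evidence of a difference. The libraries labelled NNAT-positive also held more RNA of other endocrine cells, with 1403 to 2490 CPM of the 4 delta cell markers against 543.5 to 1046 CPM, and 299.7 to 420.9 CPM of *Ppy* and *Pyy* against 89.1 to 159 CPM; their part in these small differences was not tested.

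**Figure D4:**
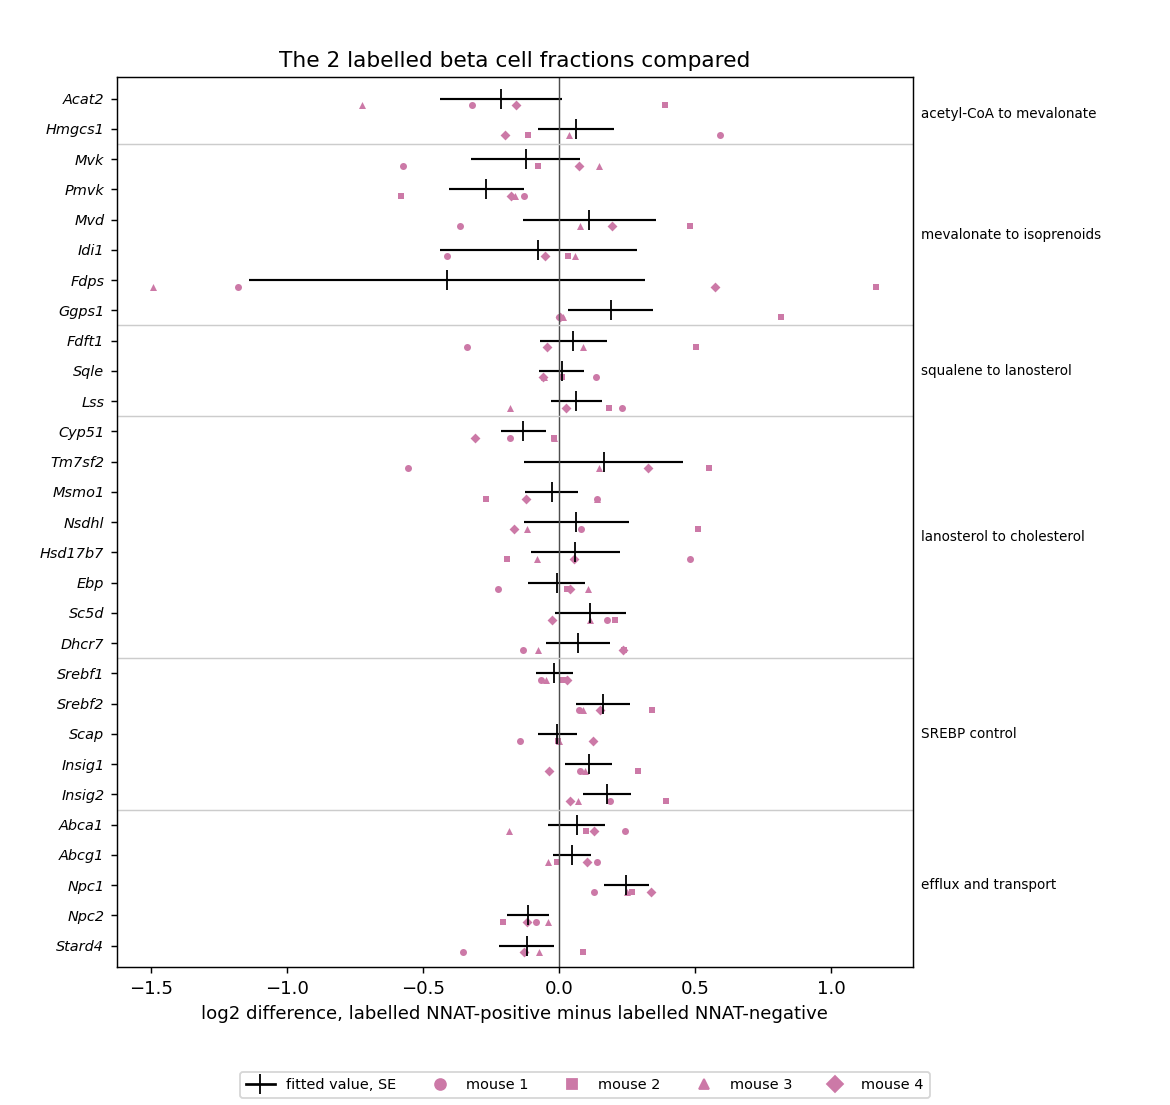
The horizontal axis is the log2 difference labelled-positive minus labelled-negative; vertical ticks with bars are fitted values with their SE, and symbols are the differences within each of the 4 mice. All 4 symbols lie on the same side of 0 for *Npc1*, *Insig2*, *Srebf2* and *Ggps1* (above) and for *Pmvk*, *Cyp51* and *Npc2* (below). The share of all tested genes for which this holds was not counted, so it is not read as a result. Some lie almost at 0: *Ggps1* is at 0.002, 0.015 and 0.004 in mice 1, 3 and 4, against 0.82 in mouse 2. *Cyp51* is at −0.02 in mice 2 and 3. The mice scatter widest for *Fdps*.

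Genes next to the pathway were found on both sides. Of 36 sterol and prenyl genes outside the 29, 35 were tested, and 10 were higher and 6 lower in beta cells, where 17.2% of all tested genes were higher and 23.9% lower. Their median log2 fold change was 0.02, against −0.10 for all tested genes. The lipoprotein receptor *Vldlr* had 82.8 ± 9.08 CPM (SD, *n*=4) in the labelled-positive libraries, 82.7 ± 12.4 CPM in the labelled-negative ones and 27.7 ± 0.430 CPM (*n*=3) in non-beta cells (log2 fold change 1.49). *Gramd1c*, of a family that moves sterol between membranes, and the cholesteryl ester hydrolase *Nceh1* were higher by 1.63 and 1.09. On the other side stood the HDL receptor *Scarb1*, with 10.4 to 15.1 CPM in the 8 beta cell libraries and 73.5 ± 10.5 CPM in non-beta cells (log2 fold change −2.51), the lysosomal acid lipase *Lipa* (−1.90) and the ubiquitin ligase *Mylip* (−2.08). Like *Npc2*, *Lipa* acts on cholesterol inside lysosomes.

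Of 16 tested fatty acid genes under SREBP control, 9 were higher and 3 lower in beta cells, against the same 17.2% and 23.9% of all tested genes, with a median log2 fold change of 0.58. *Acly*, which supplies cytosolic acetyl-CoA to both pathways, had 2325 ± 357, 2161 ± 385 and 761 ± 71.8 CPM in the 3 fractions (log2 fold change 1.65, SE 0.11). *Mlxipl*, which encodes the glucose-responsive factor ChREBP, and the elongase *Elovl5* were higher by 3.03 and 1.29. The desaturases *Scd1* and *Fads2* and the mitochondrial carboxylase *Acacb* were lower, by −1.98, −1.15 and −5.23, and *Acacb* was at 0 to 1.26 CPM in beta cells. Each gene named from the pair of lists passed in edgeR's quasi-likelihood test. Between the beta cell fractions 0 genes of either list passed by that test or by DESeq2, and at an unadjusted *p* below 0.05 1 fatty acid gene was higher (the desaturase *Scd2*, named after its value was seen) and 0 genes were lower.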

How the data were processed

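RNA was measured in 11 libraries of FACS-sorted islet cells, poly(A)-selected and prepared with a directional kit. Per the study's methods, the authors used STAR 2.7.1a with mm10 and gencode release 25, and they deposited whole-number counts per gene that were not normalised; whether counting used the strand was not stated. Counts were tested here in R 4.3.3 with the quasi-likelihood test of edgeR 4.0.16 (TMM, filterByExpr by fraction, 17424 genes, all 11 libraries in 1 fit, mouse as a block), passing at a Benjamini-Hochberg adjusted *p* below 0.01. CPM used TMM-scaled library sizes, and an SE was obtained by dividing the log2 fold change by the root of its *F* statistic. Intervals of 95% used the *t* distribution with 5 residual degrees of freedom and, like the limit of 3 counts, say nothing of sorting or labelling errors.

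The mouse numbers came from the sample titles. Deviations from the group means correlated by 0.182 to 0.658 between the beta cell fractions of 1 mouse (4 pairs). The 0.658 was that of mouse 4, and the other pairs reached at most 0.219. Between mice the average was −0.103 (12 pairs). It is no separate evidence, because deviations from a group mean cancel out within the group. The titles give a number after the fraction and do not say that it is a mouse. Per the study's methods each of the 4 replicates came from 1 mouse, so equal numbers were taken to pair the libraries. Between a beta cell library and the non-beta library of the same mouse the correlation was weaker, at 0.0321 to 0.125 (6 pairs), and the block in the comparisons with non-beta cells rests on that. No 2 of the 55 pairs of libraries were identical.

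All 29 genes are named; of each neighbouring list, the 3 genes with the smallest *p* in each direction are, and between the beta cell fractions the 5 genes with the smallest *p*. These genes, lists and tests were chosen with earlier results of these data known. Exon lengths and overlaps came from gencode release 21 (GRCm38), in which 55141 gene identifiers matched without their version, and promoters from RefSeq. Alternatives were DESeq2 1.42.0, RLE size factors, no filter, no block, *Ins1* and *Ins2* left out of library sizes, other thresholds, only the beta cell libraries and each mouse left out.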

Additional observations from a re-analysis of the deposited data

Results flagged for a closer look

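In 4 cases 1 library stood apart from the other 3 of its fraction by a Dixon test on log2 CPM, among 58 such tests of the 29 genes in both beta cell fractions. Chance flags about 1 in 20 groups. *Cyp51* was high in the labelled-positive library of mouse 2, at 103 CPM against 73.4 to 77.7 CPM in the other 3 (gap over range 0.831). *Npc2* was low in the labelled-positive library of mouse 4, at 128 CPM against 201 to 213 CPM (0.882). *Ebp* was low in the labelled-negative library of mouse 4, at 20.0 CPM against 25.9 to 26.8 CPM (0.893), and so was *Scap*, at 71.1 CPM against 100.6 to 106 CPM (0.865). Thus 3 of the 4 concern mouse 4, which has no non-beta library.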

How the results depend on the processing

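No log2 fold change of the 29 genes between both beta cell fractions and non-beta cells, nor of the 5 genes named between the fractions, changed sign under the alternatives run. With a 2-fold threshold added, 7 genes were higher and 0 lower in each comparison with non-beta cells. Of the 17424 tested genes, 1083 were higher and 3294 lower for both fractions together. The counts were 1068 and 2697 for the labelled-positive libraries, and 1076 and 2980 for the labelled-negative ones. Without the replicate block, *Npc2* no longer passed in the labelled-negative libraries (0 lower), and the genes higher between the beta cell fractions fell from 9 to 1. That count was 123 with DESeq2 (14 lower), 29 without the filter (1 lower), 18 at an adjusted *p* below 0.05, and 0 to 5 with 1 mouse left out (0 without mouse 3). Leaving out mice gave 1811 to 2462 genes higher in the labelled-positive libraries than in non-beta cells and 1738 to 2463 in the labelled-negative ones, lowest without mouse 3. The causes were not tested. In both fractions together, 12 to 14 cholesterol genes were higher with 1 mouse left out, where the whole table had 2021 to 2777 genes higher. At 0.05, *Idi1*, *Sc5d*, *Abca1* and *Abcg1* were added, while the genes higher in the whole table rose from 3002 to 3894. Apart from *Scap*, the block changed no call of a cholesterol gene in both fractions together; with each fraction on its own, the calls lost are given beside the result. *Fdps* and *Idi1* had low levels and large SEs (0.73 and 0.39 for both fractions against non-beta cells), so their values are not firm.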

Other observations

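Both beta cell libraries of mouse 4 stood apart from those of the other mice, over the whole table as well as in the cholesterol genes, a pattern chosen after the values were seen. *Ins1* and *Ins2* took 18% and 17.8% of their counts against 24.0% to 34.4% in the other beta cell libraries, and the 10 beta cell markers summed to 186500 and 185700 CPM against 285900 to 431300 CPM. Of all tested genes, 21.8% were highest in mouse 4 in both fractions, against 7.37% to 7.97% for the other mice. The part of these differences in the values below was not tested. For 12 of the 29 genes mouse 4 had the lowest level of the 4 mice in both fractions, against 19.4% of all tested genes; these were *Mvk*, *Sqle*, *Ebp*, *Dhcr7*, *Srebf1*, *Srebf2*, *Scap*, *Insig1*, *Abca1*, *Abcg1*, *Npc1* and *Npc2*. In mice 1, 2 and 3 the corresponding counts were 1, 3 and 1 of the 29 genes, against 6.47%, 9.3% and 3.49% of all tested genes. *Npc2* stood at 61.7% of the mean of mice 1 to 3 in the labelled-positive library and at 61.9% in the labelled-negative one, *Abcg1* at 61.6% and 58.7%, and *Abca1* at 72.3% and 68.4%. *Srebf2* stood at 73.8% and 74.2%. On the other side, *Tm7sf2* (180% and 152%), *Idi1* (148% and 145%), *Sc5d* (114% and 130%) and *Ggps1* (117% and 138%) were highest in mouse 4 in both fractions. The median over all genes above 1 CPM was 94.3% and 97.8%, and that over the 29 genes 86.8% and 91.3%. A single mouse allows no test of this difference.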
